A study of Mus musculus with 7 samples.

Results

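Ccl3, Ccl4, Ccl5 and Xcl1 are chemokine genes that CD8-positive T cells (CD8-TC) are known for expressing, and their chromatin was described from regions bound by the transcription factor Runx3 and regions marked by H3K4me1, the monomethylation of histone H3 at lysine 4. A region was assigned to a gene when its midpoint lay in the gene body or within 20 kb of it (the window) in the GENCODE annotation of mouse build mm9. By this rule the 4 genes held 2 of the 4934 Runx3-bound regions and 11 of the 76705 H3K4me1-marked regions. The windows of Ccl3 and Ccl4 overlapped, and 3 of the 11 H3K4me1-marked regions were counted for both genes. Each antibody gave 1 list, called on joined repeats and deposited without score, summit or read depth, so that no value below has a replicate error and a region that was not called is not shown to be unbound.

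Chromatin immunoprecipitation with sequencing (ChIP-seq) was carried out on splenic CD8-TC of wild-type ICR mice, pooled from 18 animals, taken with anti-CD8 beads by positive selection and fixed without prior culture, that is, in the resting state. An antiserum to Runx3 was used for 3 libraries, which came from 2 biological repeats, an antibody to H3K4me1 for 2 libraries, and non-immune serum (NIS) as the control for 2 libraries. Cells of several animals were pooled, so differences between animals cannot be seen, and cells without Runx3 were not analysed here.

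Chemokines are small secreted proteins that attract leukocytes through receptors coupled to G proteins. Ccl3 and Ccl5 (also called RANTES) bind Ccr1, among other receptors, and Ccl4 is closely related to Ccl3. Xcl1 (lymphotactin) binds Xcr1, which cross-presenting dendritic cells carry. Activated CD8-TC and natural killer (NK) cells secrete them, and memory CD8-TC hold Ccl5 transcripts ready for rapid release. Runx3 is a Runt-domain transcription factor that sets the CD8 lineage and the cytotoxic program, and H3K4me1 marks enhancers, active or poised, and the flanks of promoters.

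The label of the cells was checked against marker genes in the same windows. Of 8 T cell markers, 8 held a Runx3-bound and 8 an H3K4me1-marked region, with a median of 38.4% of the window covered by H3K4me1 (range 19.2 to 68.1%). Over all protein-coding genes 19.8% held Runx3 and 73.6% held H3K4me1 in such a window, so the H3K4me1 count by itself says little of the cell type. Of 5 B cell markers, 3 held Runx3 and 5 held H3K4me1, with a median cover of 32.1% (range 19.2 to 53.4%). The ranges of cover of T and B cell markers thus overlapped. Of 4 dendritic cell markers, 3 held Runx3 and 4 held H3K4me1 (median cover 21.1%), against 1 and 3 of 4 myeloid markers (11.6%). Among the myeloid markers, Lyz2 was covered at 0%, Csf1r at 9.40%, Cd14 at 13.7% and Itgam, with the 1 Runx3-bound region, at 31.2%. Of the NK cell markers Ncr1 was covered at 0% and Klrb1c at 23.5%, with 0 Runx3-bound regions. Of 4 genes of tissues that are not lymphoid, 1 held H3K4me1 and 0 held Runx3. The part of other cells of the spleen in the regions of the 4 chemokine genes was not tested.

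The sequences printed here are the 300 bases around the midpoint of the nearest Runx3-bound region of Ccl5, Ccl3 and Xcl1, read from mm9 on the plus strand. The list gives no summit, so where in a region the signal was highest is unknown. They are shown because the regions of Ccl5 and Ccl3 are the 2 that the rule found, and that of Xcl1 because it is the nearest outside its window. Capitals mark RUNX motifs, searched on either strand in 4 forms. The form TGTGGT is the core site, the form TGTGGC differs from it in the last base, the form TGCGGT differs in the third base, and the form TGCGGC differs in both. In all, 76.0% of the Runx3-bound regions hold such a motif in the central 300 bases.
Ccl5 region, chr11:83348599-83348898: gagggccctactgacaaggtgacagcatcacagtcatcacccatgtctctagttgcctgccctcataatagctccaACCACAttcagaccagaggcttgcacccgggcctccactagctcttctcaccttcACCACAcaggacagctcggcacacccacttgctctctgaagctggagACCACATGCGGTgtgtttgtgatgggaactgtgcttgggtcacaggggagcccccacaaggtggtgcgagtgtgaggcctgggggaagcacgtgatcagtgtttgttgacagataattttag
Ccl3 region, chr11:83453770-83454069: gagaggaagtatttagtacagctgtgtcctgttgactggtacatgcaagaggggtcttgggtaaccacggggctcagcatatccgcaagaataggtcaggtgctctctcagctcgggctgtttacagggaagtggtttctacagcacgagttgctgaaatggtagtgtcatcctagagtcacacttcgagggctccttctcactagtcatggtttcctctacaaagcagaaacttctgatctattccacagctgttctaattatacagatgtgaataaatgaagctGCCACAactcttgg
Xcl1 region, chr1:166890279-166890578: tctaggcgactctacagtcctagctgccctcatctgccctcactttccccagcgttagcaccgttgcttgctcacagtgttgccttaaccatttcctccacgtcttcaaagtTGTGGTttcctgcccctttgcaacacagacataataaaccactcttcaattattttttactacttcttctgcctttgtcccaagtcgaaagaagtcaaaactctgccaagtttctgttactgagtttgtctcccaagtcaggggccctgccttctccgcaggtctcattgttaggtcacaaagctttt

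Promoter sequences were matched by symbol in RefSeq (build GRCm38.p6) for 2 of the 4 genes, Ccl3 and Xcl1, and not for Ccl4 and Ccl5. Their upstream bases were found without mismatch at a single place in mm9, on the minus strand, where both genes lie. They are shown so that the letters at the start of these genes can be read beside the marks there. Capitals again mark RUNX motifs. The Xcl1 sequence leaves out the last 5 bases, which lie inside the GENCODE transcript.
Ccl3 promoter, chr11:83462881-83463130: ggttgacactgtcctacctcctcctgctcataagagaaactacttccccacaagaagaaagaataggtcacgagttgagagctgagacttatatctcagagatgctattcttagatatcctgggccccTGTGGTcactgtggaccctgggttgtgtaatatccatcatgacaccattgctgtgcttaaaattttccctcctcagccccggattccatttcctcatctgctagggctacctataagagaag
Xcl1 promoter, chr1:166865659-166865903: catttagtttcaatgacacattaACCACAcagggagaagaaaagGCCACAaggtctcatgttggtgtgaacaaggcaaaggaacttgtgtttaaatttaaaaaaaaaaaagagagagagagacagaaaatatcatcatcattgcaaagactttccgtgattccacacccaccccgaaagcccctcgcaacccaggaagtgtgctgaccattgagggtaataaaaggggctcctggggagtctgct

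Runx3 was bound near 2 of the 4 genes. Ccl5 and Ccl3 each held 1 Runx3-bound region in their windows, and Ccl4 and Xcl1 held 0. Over all 22350 protein-coding genes, 19.8% held at least 1 such region (Wilson 95% interval 19.3 to 20.3%, which covers counting error only). All 4 members have bodies under 5 kb and therefore short windows of 41.5 to 44.7 kb, against a median of 55.4 kb over all genes. Among the 5838 protein-coding genes of at most 5 kb, 11.5% held a Runx3-bound region. With windows of 5 kb the count was 1 of 4 genes beside 13.0% of protein-coding genes, and with 50 kb it was 4 of 4 beside 30.8%. These shares are lower than those of the members, but 4 genes chosen with results of these lists known, 2 of which share part of their window, do not make a test, and none was run.

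Measured from the transcription start site (TSS) to the midpoint of the nearest Runx3-bound region, the order was Ccl5 at 4.728 kb, Ccl3 at 8.938 kb, Ccl4 at 22.167 kb and Xcl1 at 24.77 kb. The median over all protein-coding genes was 149 kb, with quartiles at 48.6 and 382 kb. All 4 genes therefore lay nearer than the lower quartile, at 6.03%, 8.26%, 14.5% and 15.8% of genes as close or closer. The limit of 20 kb separated Ccl5 and Ccl3 from Ccl4 and Xcl1, whose nearest regions lay 2.167 and 4.77 kb beyond it.

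Ccl5 lies on the minus strand at chr11:83339280-83344020 (ENSMUSG00000035042.2). Its Runx3-bound region at chr11:83348324-83349172 was 849 bp wide, close to the list median of 851 bp, and began 4304 bp upstream of the gene in intergenic sequence. The whole region lay inside an H3K4me1-marked region of 3350 bp at chr11:83347584-83350933. That mark was at least as wide as 93.2% of the H3K4me1 list, and, counted once per Runx3-bound region with H3K4me1, at least as wide as the mark at 60.9% of those 3889 regions, where the median width was 2613 bp. Wide H3K4me1 around Runx3 was thus usual in this list, and the Ccl5 region was within that range.

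The Ccl5 region was rich in RUNX motifs beside the rest of the list. It held 5 of them, 3 of the form TGTGGT and 2 of the form TGCGGT, and 12.2% of Runx3-bound regions held 5 or more. Their density was 5.89 per kb, against a list median of 2.77 per kb. The first 4 lay within 114 bp, at -70, -15, +32 and +38 bp from the region midpoint, and 3.26% of Runx3-bound regions held 4 motifs within 150 bp. The pair at chr11:83348777-83348782 on the minus strand and chr11:83348783-83348788 on the plus strand stood side by side in opposite orientation, with 0 bases between them. They are of unlike forms, TGTGGT on the minus strand and TGCGGT on the plus strand. Of all Runx3-bound regions 1.03% held 2 RUNX motifs directly side by side in any orientation. The fifth motif lay at +411 bp, near the region's edge. A motif match is a description of letters and does not show which of them Runx3 occupied.

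Motifs of other lymphocyte factors were searched in the same regions on both strands. ETS motifs, bound by a family that includes Ets1, were searched as AGGAAA or, with another last base, as AGGAAG, and with another first base, as CGGAAA and likewise as CGGAAG, and NFAT motifs, bound by the calcium-regulated factors of T cell activation, were GGAAA, which overlaps the ETS forms that end in a run of A. The Ccl5 region held 6 ETS and 5 NFAT motifs but 0 ETS motifs in its central 300 bases. It held 2 pairs of a RUNX and an ETS motif that started within 50 bp of each other, at its outer RUNX motif, with the nearest pair 32 bp apart. Over the list 56.5% of regions held such a pair, and 95.0% held an ETS and 94.3% an NFAT motif. Nearly all regions of the list thus held these last motifs. In the H3K4me1 list the shares were 92.6% and 93.1%, and regions outside both lists were not searched. AP-1 motifs (TGACTCA) and T-box motifs (GGTGTGA) were held by 16.5% and 13.2% of the list and numbered 0 in the Ccl5 region.

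Ccl3 lies on the minus strand at chr11:83461346-83462857 (ENSMUSG00000000982.5). Its Runx3-bound region, chr11:83453509-83454329, was on the other side of the gene, starting 7017 bp beyond the 3′ end, and was 821 bp wide. The pseudogene Rpl9-ps1 lies between the region and Ccl3, and its start was the nearest of any gene at 5204 bp. Among protein-coding genes Ccl3 was nearest, at 8938 bp from its TSS, and Ccl4 lay farther on the same side, at 22167 bp. The same region is thus the nearest one for Ccl3 and for Ccl4, and the assignment by distance does not show which gene, if either, it acts on.

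The Ccl3 region also lay wholly within a wide mark. Its H3K4me1-marked region, chr11:83452276-83455786, spanned 3511 bp, at least as wide as 93.8% of the list, and extended 1233 and 1457 bp beyond the Runx3-bound region on its left and right. The Runx3 midpoint was at -112 bp from the midpoint of the mark along the chromosome, whereas at Ccl5 it was at -510 bp. Both of the 2 Runx3-bound regions overlapped H3K4me1, beside 78.8% of the whole list, and both were covered over their whole width, beside 50.6%.

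In letters the Ccl3 region was sparser than that of Ccl5. It held 2 RUNX motifs, 1 TGTGGT at -366 bp and 1 TGTGGC at +140 bp, and 54.6% of regions held as many or fewer. Neither lay in the central 200 bases, where 66.0% of the list held one. The region held 4 ETS motifs and 1 NFAT motif, and its nearest RUNX and ETS motifs started 74 bp apart, so that it was not among the 56.5% with a pair within 50 bp. Both regions with Runx3 thus held a RUNX motif, beside 88.8% of the list, and they differed in number and in placement.

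**Figure D1:**
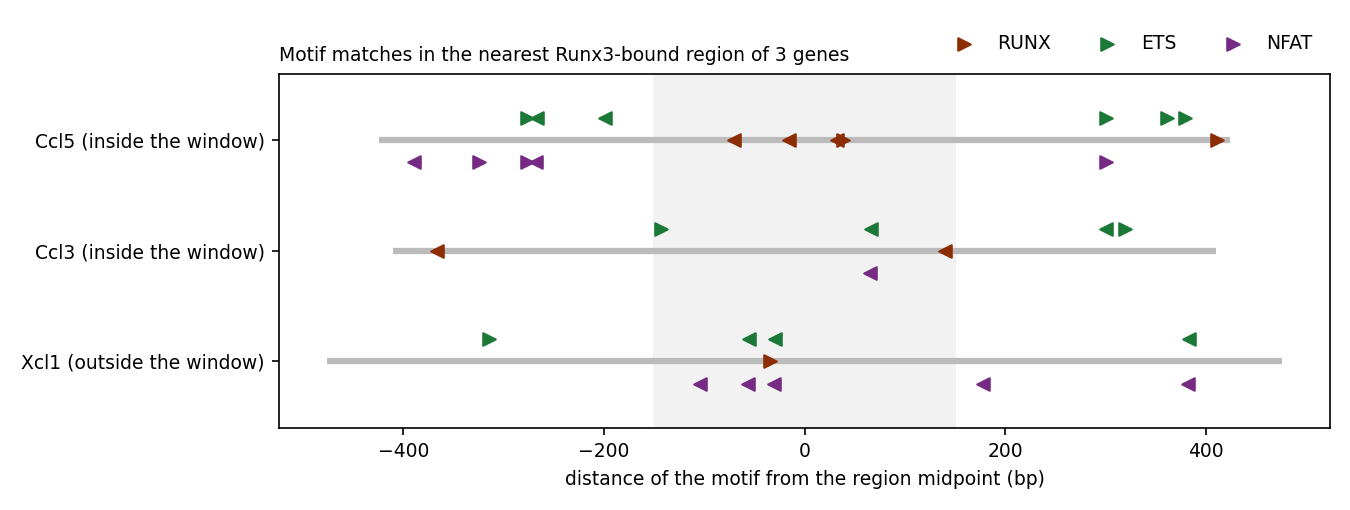
RUNX, ETS and NFAT motif matches are drawn along the Runx3-bound regions nearest to Ccl5, Ccl3 and Xcl1 (grey bars, to scale), by distance from the region midpoint in bp, with right-pointing marks on the plus strand and the central 300 bp shaded. In the Ccl5 region 4 of 5 RUNX motifs are gathered in the shaded centre, whereas the Ccl3 region has 1 there and the Xcl1 region has its 1 beside an ETS motif.

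Xcl1 lies alone in its window on chromosome 1, at chr1:166861775-166865658 on the minus strand (ENSMUSG00000026573.7), with 0 other annotated genes whose body falls there. The Runx3-bound region nearest to it, chr1:166889953-166890904, was 952 bp wide and began 24.295 kb upstream of the gene. Xcl1 was the nearest gene of any type to that region. It held 1 RUNX motif, TGTGGT, at -34 bp from its midpoint, and this motif shared its last base with an ETS motif on the minus strand. It held 4 ETS and 5 NFAT motifs in all. Of the Runx3 list 30.9% held 1 RUNX motif or none.

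H3K4me1 around the Xcl1 upstream region was the most extended of the 3 regions. The Runx3-bound region overlapped 2 marked regions of 2016 and 4394 bp and spanned the gap of 82 bp between them, as did 10.5% of the Runx3 list in overlapping 2 or more marked regions. Its midpoint lay 185 bp from the midpoint of that gap. When H3K4me1-marked regions within 1000 bp of each other were joined, this one became part of a block of 5 regions and 13346 bp, at chr1:166883759-166897104, wider than or equal to 98.5% of all such blocks. The joined blocks at Ccl3 and Ccl5 held 2 regions each and spanned 5280 bp (90.5%) and 4005 bp (84.8%), against a median of 1536 bp. The Runx3 midpoint lay at -3 bp from the middle of the Xcl1 block. Most of this block lies outside the Xcl1 window, the nearest excluded region (2813 bp wide) having its midpoint 20.794 kb from the gene, so that of its 5 regions 1, of 625 bp, is counted for Xcl1 below.

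All 4 genes had H3K4me1 within their windows, with 5 regions at Ccl3, 4 at Ccl5, 3 at Ccl4 and 2 at Xcl1. This is common, since 73.6% of protein-coding genes and 49.6% of those of at most 5 kb held at least 1. The median number was 4 over all protein-coding genes, and the counts of the 4 genes lay around it. Among genes of at most 5 kb the median was 0 and the upper quartile 4, so that all 4 genes lay above that median and Ccl3 and Ccl5 at or above the quartile.

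The share of the window inside H3K4me1-marked regions divided the genes into a higher and a lower pair. Ccl3 was covered at 14.9% and Ccl5 at 12.4%, and these are the genes with Runx3 in the window. The marks that host Runx3 make up the larger part of this cover, 3511 of 6206 bp at Ccl3 and 3350 of 5547 bp at Ccl5. Cover and Runx3 are therefore not separate observations here. Xcl1 was covered at 4.78% and Ccl4 at 4.33%. Over all protein-coding genes the median was 5.75%, with quartiles at 0 and 14.3%, so Ccl3 lay just above the upper quartile, Ccl5 below it, and Xcl1 and Ccl4 below the median. For genes of at most 5 kb the median was 0% and the upper quartile 11.8%. This division depends on the window, since with 5 kb Ccl3 was covered at 0% and Ccl4 at 13.1%, and with 50 kb Xcl1 was the highest at 16.8% and Ccl3 the lowest at 7.74%. With no replicate values, whether 14.9% and 12.4%, or 4.78% and 4.33%, differ cannot be said.

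**Figure D2:**
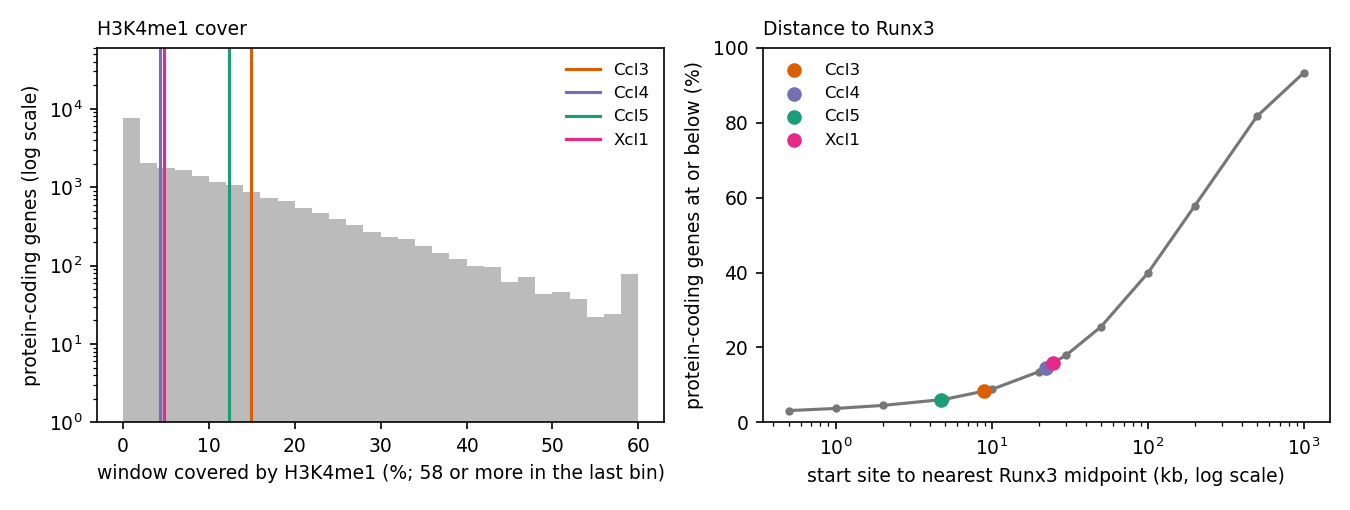
The left panel shows how many protein-coding genes (log scale) have each percentage of their window covered by H3K4me1, with 1 line per chemokine gene, and the right panel shows the percentage of protein-coding genes at or below each TSS distance (kb, log scale) to the nearest Runx3-bound midpoint, with the 4 genes as points. The cover of the genes spans 4.33 to 14.9%, and all 4 lie within the nearest 15.8% of genes by Runx3 distance.

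The place of the mark relative to the promoter and body differed from gene to gene. At Ccl4 (chr11:83476086-83478185, plus strand, ENSMUSG00000018930.3) a region of 661 bp, chr11:83475681-83476341, lay over the TSS, and another of 422 bp lay within the gene and overlapped coding exon sequence. Together they covered 32.3% of the gene body. The bodies of Ccl3, Ccl5 and Xcl1 were covered at 0%. The TSS lay inside an H3K4me1-marked region in 1 of the 4 genes, beside 17.7% of all protein-coding genes.

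At Xcl1 the mark stopped at the gene. The region chr1:166865661-166866518, 858 bp wide, began 3 bp upstream of the TSS, and the promoter sequence printed for Xcl1 lay almost wholly within it, 97.2% of the 250 bases before the RefSeq start being covered. At Ccl3 the corresponding 250 bases were covered at 0%, and the nearest mark lay 7.071 kb from the TSS. At Ccl5 the nearest mark lay 2.909 kb from the TSS, and all 4 of its regions were upstream. Over all protein-coding genes the median distance from the TSS to the nearest mark was 0.476 kb, with an upper quartile of 38.1 kb. The distances of Ccl3 and Ccl5 were above the median but within the quartiles, at 63.0% and 58.6% of genes at or below, while Ccl4 and Xcl1 had their marks at the start.

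The Xcl1 promoter sequence held 2 RUNX motifs, at -219 and -198 bp from the TSS, and that of Ccl3 held 1, at -142 bp. Among 32851 promoter sequences of this length of the same set, 38.0% held at least 1. Neither promoter overlapped a Runx3-bound region, which is the usual case. Over all protein-coding genes 3.16% had the midpoint of a Runx3-bound region within 0.5 kb of the TSS. The Xcl1 sequence also held 2 ETS motifs, 1 NFAT motif and 1 T-box motif (GGTGTGA), and the Ccl3 sequence held 1 ETS and 2 NFAT motifs. Of all promoter sequences 57.2% held an ETS, 55.6% an NFAT and 3.33% a T-box motif. T-box factors include T-bet and Eomes of CD8-TC, and the letters alone say nothing of their binding. The H3K4me1-marked region upstream of Xcl1 as a whole held 4 RUNX and 5 ETS motifs.

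**Figure D3:**
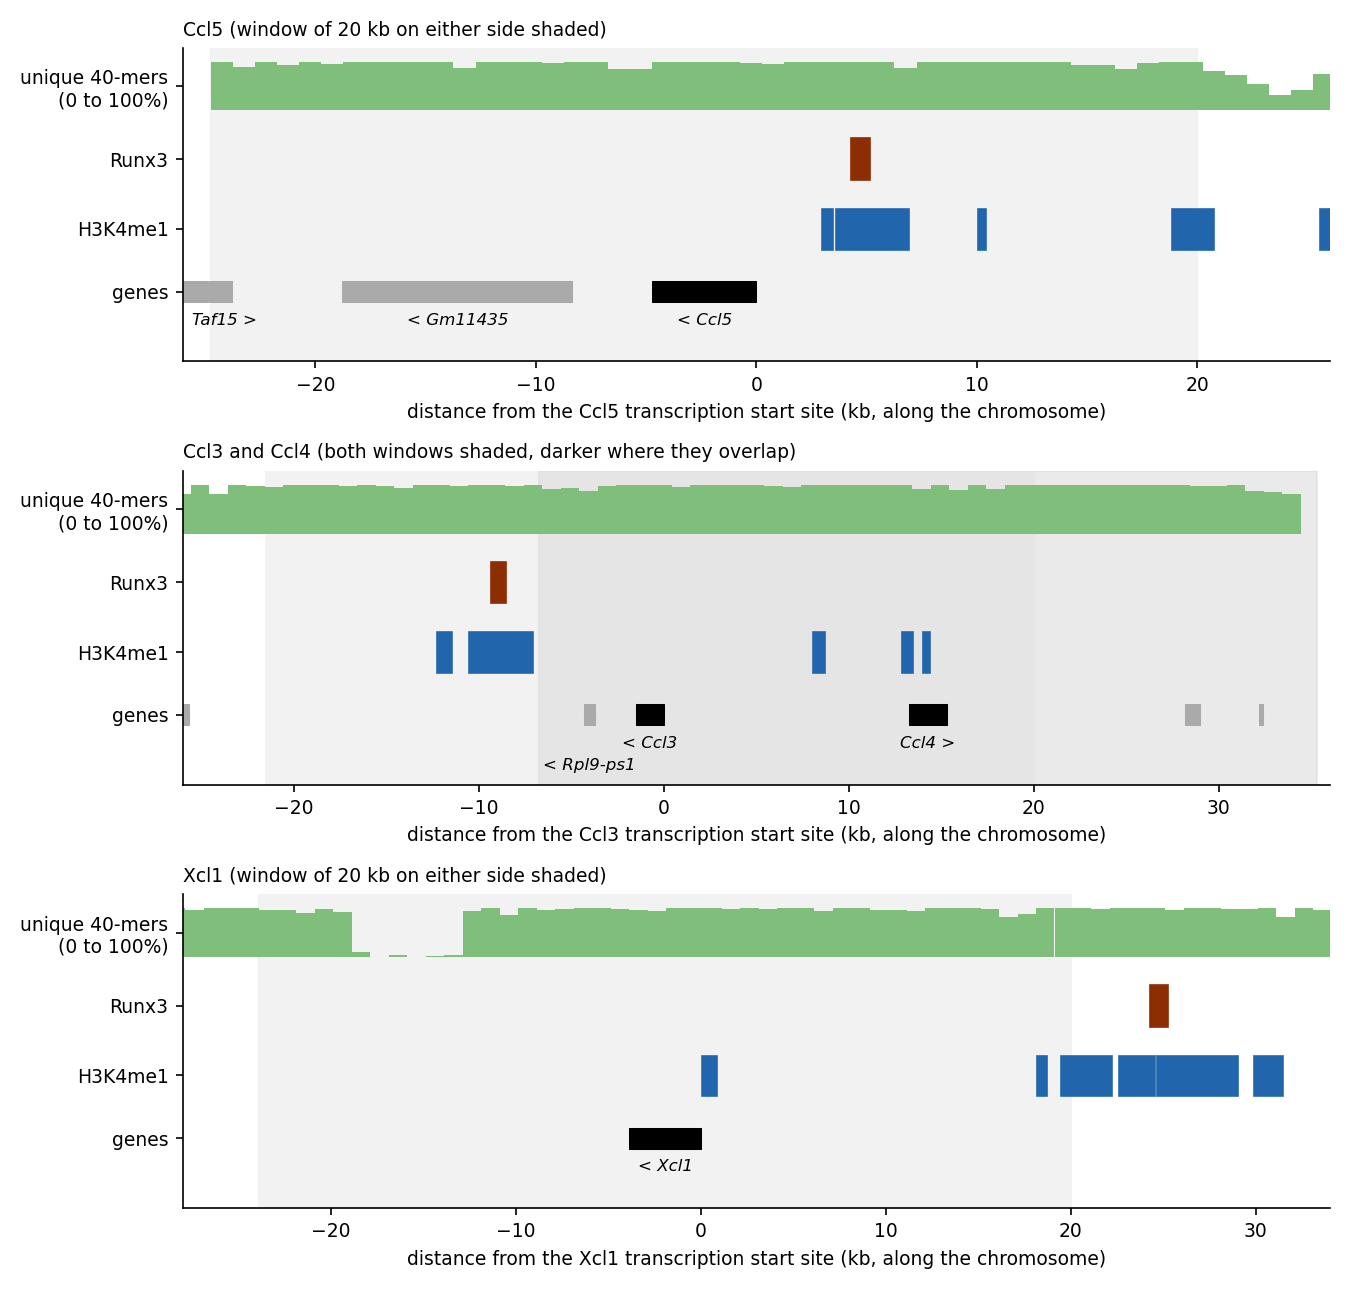
Annotated genes (members in black, others in grey, with arrows for direction), H3K4me1-marked regions (blue), Runx3-bound regions (brown) and the share of 40-mers that occur once in the genome per 1 kb (green, 0 to 100%) are drawn by distance in kb from the TSS of Ccl5, Ccl3 and Xcl1, with the 20 kb windows shaded. The Runx3-bound region lies upstream of Ccl5, beyond the 3′ end of Ccl3 and, for Xcl1, outside the shading within a row of H3K4me1-marked regions.

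The 11 H3K4me1-marked regions ranged from 422 to 3511 bp in width, and 8 of them were narrower than the list median of 979 bp. The 3 wider ones were the hosts of the Runx3-bound regions at Ccl3 and Ccl5 and a region of 1971 bp, chr11:83362822-83364792, at the far edge of the Ccl5 window. The midpoint of that last region lay 19.787 kb from Ccl5, 0.213 kb inside the limit. Runx3 overlapped 2 of the 11 regions, beside 5.49% of the whole H3K4me1 list, a difference that was not tested. RUNX motifs were found in 10 of the 11, beside 81.5% of the whole H3K4me1 list, and in 8 of the 9 regions without Runx3. The motif alone thus did not separate the marked regions with Runx3 from those without.

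Among these regions the host at Ccl5 held the most RUNX motifs, 9, and the host at Ccl3 held 6. They held 20 and 18 ETS motifs. The Ccl5 host also had 4 AP-1 matches, a count in which each AP-1 site enters once per strand. The edge region of Ccl5 held 7 RUNX motifs without being called for Runx3. Counts rise with width, and these are the 3 widest of the 11. The 1 region with 0 RUNX motifs was a narrow one of 428 bp, at -10198 bp from the Ccl5 TSS.

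Ccl5, Ccl3 and Ccl4 belong to one chemokine cluster, and the segment that joins their windows, chr11:83319280-83498185, spans 178.9 kb. It held 2 Runx3-bound regions, those of Ccl5 and Ccl3, whose midpoints lie 105.171 kb apart, and 19 H3K4me1-marked regions that covered 14.1% of it. The next nearest Runx3-bound region lay 445.338 kb beyond the body of Ccl5. Between the windows of Ccl5 and Ccl3 lay 77.3 kb with 0 Runx3-bound and 10 H3K4me1-marked regions and a cover of 17.4%. This stretch contains Ccl9 and Ccl6, chemokines chiefly made by myeloid cells, whose own windows were covered at 24.1% and 16.5% with 7 marked regions each and 0 Runx3-bound regions. The cover between the windows was therefore higher than in the window of Ccl3, Ccl4 or Ccl5. The other genes in the windows of the members were Rpl9-ps1, Gm11433 and Gm11438, which are pseudogenes, and near Ccl5 the U6 gene, Gm11435 and the end of Taf15. The 13.2 kb between Ccl3 and Ccl4 held 2 marked regions and 0 Runx3-bound regions.

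**Figure D4:**
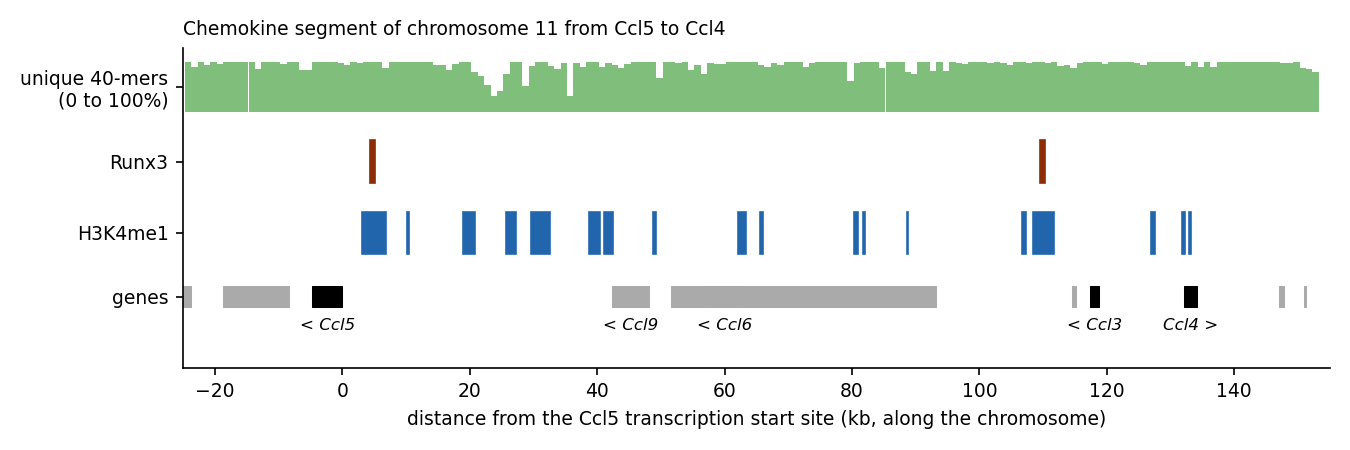
The chromosome 11 segment from Ccl5 to Ccl4 is drawn by distance in kb from the Ccl5 TSS, with genes (members in black), H3K4me1-marked regions (blue), Runx3-bound regions (brown) and the share of unique 40-mers per 1 kb (green, 0 to 100%). The 2 Runx3-bound regions lie near Ccl5 and Ccl3, whereas the 19 H3K4me1-marked regions run through the whole segment, the part with Ccl9 and Ccl6 included.

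Reads that do not align uniquely leave gaps in such lists, so the share of 40-mers that occur once in the genome was counted. It was 97.9% in the Ccl3 window, 97.2% in those of Ccl4 and Ccl5, and 84.2% in that of Xcl1, where 6 of 43 bins of 1 kb were under 50%. Those bins lie beyond the 3′ end of Xcl1, on the side of the gene where the window held 0 marked regions. The bins between them and the gene were unique at 86.9 to 100% and also held 0 marked regions. Whether low uniqueness accounts for the absence of marks was not tested. The 3 Runx3-bound regions whose sequences are shown were unique at 100%.

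The rest of the chemokine system was described with the same windows. Of 35 other chemokine ligand genes, 1 held a Runx3-bound region (2.86%) and 23 held H3K4me1. The shares were 19.8% and 73.6% over all protein-coding genes, and 11.5% and 49.6% over those of at most 5 kb, which many chemokine ligand genes are. The 1 was Ccl1, a ligand of Ccr8, whose annotated body in this release gives a window of 169 kb, several times as long as those of the members. The median cover of these ligands was 2.12%, below each of the 4 members at 4.33 to 14.9%. Ccl9, Cxcl16, Cxcl17, Cxcl11, Ccl25 and Ccl6 had a higher cover than Ccl3, with 0 Runx3-bound regions. Both the members and this list were drawn up with results known, and the difference was not tested.

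Chemokine receptor genes were counted in the same way. Of 24 receptor genes 7 held Runx3 (29.2%) and 24 held H3K4me1, with a median cover of 21.9%, beside 19.8%, 73.6% and a median cover of 5.75% over all protein-coding genes. Several of these receptor genes are neighbours on chromosome 9, and the difference was not tested. Ccr7, which guides naive T cells into lymph nodes, held 4 Runx3-bound regions at a cover of 76.3%, and Ccr9, the gut-homing receptor, held 4 at 20.5%. The annotated body of Ccr9 gives a window of 143.5 kb, against 50.9 kb for Ccr7, so these 2 counts are not alike. The nearest Runx3 midpoint lay 44.8 kb from the TSS of Ccr9 and 0.062 kb from that of Ccr7. Cxcr6, a receptor of tissue-resident T cells, held 2 at 35.6%, and Cxcr4, Xcr1, Cx3cr1 and Ccr2 held 1 each. Their 14 distinct Runx3-bound regions all overlapped H3K4me1, as did 78.8% of the whole Runx3 list.

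The receptors Ccr1, Ccr3 and Xcr1 were set beside their ligands. Ccr1, which binds Ccl3 and Ccl5, held 0 Runx3-bound and 13 H3K4me1-marked regions (cover 47.3%), with the nearest Runx3 34.5 kb from its TSS. Ccr3, which Ccl5 also binds, held 0 and 5 (10.3%). Xcr1, chiefly a gene of dendritic cells, held 1 Runx3-bound region, chr9:123780862-123781720, and 8 marked regions (25.8%). Its ligand Xcl1 held 0 and 2 within 20 kb, with the Runx3-bound region described upstream lying 4.77 kb beyond that limit.

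Likeness of pattern was measured as the cosine between profiles of covered share in 1 kb bins, 20 kb to either side of the TSS, over both lists (80 values per gene), with genes within 100 kb of the member left out. Of the remaining protein-coding genes those nearest to Ccl5 were Akap3 (0.802), 4931417G12Rik (0.785) and Atp6v0d2 (0.781), and those nearest to Ccl3 were Clec4g (0.818), Olfr15 (0.792) and Gm10564 (0.791). The cosine with Ccl4 was 0.996 for Pus7 and 0.981 for 2310001A20Rik, and that with Xcl1 was 0.959 for Ntrk3, 0.899 for Phtf1 and 0.889 for Nek3. Of the genes most alike to Ccl5 and Ccl3, Akap3, 4931417G12Rik and Olfr15 held 0 Runx3-bound regions, and Atp6v0d2, Clec4g and Gm10564 held 1 each. A high cosine thus did not require a shared Runx3-bound region. Pus7, like Ccl4, held 0 Runx3-bound and 3 H3K4me1-marked regions, so that few bins were filled. The cosines describe the position of called regions within 2 joined lists.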

How the data were processed

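ChIP-seq was measured in 7 libraries (3 Runx3, 2 H3K4me1, 2 NIS). The authors aligned reads of 40 to 42 bp to mm9 with ELAND (CASAVA 1.6 and 1.7 are named in the submitters' processing notes), kept uniquely aligned reads, joined the repeats and called peaks with MACS 1.4 against NIS, the larger data set being scaled to the smaller. The deposited values are start and end positions in base pairs, with no score, and the depth per region is unknown. The NIS libraries entered through these calls alone.

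Positions were used with the NCBIM37 sequence (mm9) and GENCODE. Starts were moved by 1 bp. Overlap required at least 1 shared base. Python 3.11.15 with numpy 2.4.6, scipy 1.17.1, pysam 0.24.0, numba 0.67.0 and matplotlib 3.10.9 was used, and the counting was tested on simulated data. No test between groups was run, since each antibody gave 1 list.

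The members, gene lists and motifs were chosen with earlier results of these data known. Named genes were the 4 members, other genes in their windows, Ccr1, Ccr3 and Xcr1, up to 10 other ligands and receptors with the most Runx3-bound regions, and the 3 genes of the most alike profile, of which some items are not reported here. Genes named for a higher cover than Ccl3, and Ccl9 and Ccl6 in the cluster, were chosen after their values were seen. Of 36 other ligand symbols 35 matched, and of 24 receptor symbols 24. Alternatives were windows of 5, 10 and 50 kb, any shared base, merged regions, other minimum overlaps, central sequence alone and other gene sets.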

Additional observations from a re-analysis of the deposited data

How the results depend on the processing

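Of 36 alternatives 25 moved the value, and in 11 it was the same or, for a count, within 1.5 times the reported one. The number of Runx3-bound regions (2) was 1 with windows of 5 kb and 3 with 50 kb. The number of H3K4me1-marked regions (11) was 5, 7 and 29 with windows of 5, 10 and 50 kb, and 7 after neighbours within 1000 bp were merged, and 12 when any shared base counted. Genes with Runx3 (2 of 4) became 1 at 5 kb and 4 at 50 kb. Cover at 5, 10 and 50 kb was 0, 19.9 and 7.74% for Ccl3, 13.1, 8.24 and 8.05% for Ccl4, 13.6, 15.9 and 15.8% for Ccl5, and 6.18, 3.59 and 16.8% for Xcl1, so that the order of the 4 genes by cover depends on the window. At 50 kb Xcl1 was the highest. In the central 200 bases 1 of the 2 Runx3-bound regions held a RUNX motif. The background share (19.8%) was 15.8% over genes of all types, 13.0, 15.5 and 30.8% at 5, 10 and 50 kb, and 11.5% over genes of at most 5 kb, an alternative chosen after seeing the data. The overlap of Runx3 with H3K4me1 stayed at 2 of 2 under the minimum overlaps tried. No paired analysis was possible because the authors joined the repeats of an antibody prior to calling, and for the same reason no replicate could be left out. The lists hold no depth, so a weak region cannot be told apart from a strong one.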
